A study of Mus musculus with 4 samples.

Results

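Tubulins are the building blocks of microtubules, and 10 of their transcripts were followed here in anti-YTHDF2 RNA immunoprecipitation (RIP) of the newborn mouse retina. They were found by symbol in the gene count table, as 10 of its 52550 genes: the alpha isotypes Tuba1a, Tuba1b and Tuba1c, the beta isotypes Tubb2a, Tubb2b, Tubb4a, Tubb4b, Tubb5 and Tubb6, and the gamma tubulin Tubg1. All 10 passed the filter on low counts. The study asked which transcripts YTHDF2, a reader protein of N6-methyladenosine (m6A), binds in the retina. Both groups came from wild type C57BL/6 retinas taken at postnatal day 0 and dissociated with papain. The input group (n = 2 libraries) was RNA of the lysate, and the RIP group (n = 2 libraries) was RNA eluted after pulldown with an antibody to YTHDF2. Each replicate held 1 input and 1 RIP library, made with a kit that keeps the strand. The pulldown with control IgG that the methods name was not analysed here, so a difference between RIP and input is relative to input alone.

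An alpha and a beta tubulin pair into the dimer that polymerises into microtubules, the tracks and struts of axons, dendrites and the mitotic spindle. Mammals have several genes for each, called isotypes, whose proteins are nearly identical apart from their tails. Tuba1a is the main alpha isotype of developing neurons and Tubb2b a beta isotype of migrating and growing neurons, while Tubb5 and Tuba1b are used by dividing and differentiated cells alike. Gamma tubulin is not part of the microtubule wall: it sits in the ring complex that starts new microtubules. Cells also adjust tubulin mRNA to the amount of free dimer, through the factor TTC5, which reads the first residues of a tubulin as it leaves the ribosome.

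Much of what can be measured for single isotypes depends on how alike their sequences are. The coding sequences of Tuba1a and Tuba1b were 98.3% identical, with 23 differing positions in 1356 and an identical run of 281 bases. Those of Tubb2a and Tubb2b were 96.5% identical, with 47 differing positions in 1338 and an identical run of 551 bases. The 60 coding bases with the most differences in each pair are shown 5′ to 3′ on the coding strand, because reads over such stretches can tell the isotypes apart. Reads over other differing stretches, the untranslated regions among them, can do so too. Capitals mark the 10 bases that differ within a pair. The first pair is coding bases 640 to 699, in exon 4 of both genes (chr15:98950691-98950750 and chr15:98932239-98932298 of GRCm38, minus strand). The second is coding bases 112 to 171, which cross from exon 2 into exon 3.
Tuba1a: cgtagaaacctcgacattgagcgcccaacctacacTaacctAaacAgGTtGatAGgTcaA
Tuba1b: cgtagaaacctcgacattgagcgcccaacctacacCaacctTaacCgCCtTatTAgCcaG
Tubb2a: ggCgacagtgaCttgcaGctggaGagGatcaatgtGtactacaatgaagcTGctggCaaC
Tubb2b: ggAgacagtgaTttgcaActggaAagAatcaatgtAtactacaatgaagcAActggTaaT

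The start of the reading frame, which in alpha and beta tubulins encodes the residues that TTC5 reads, differed by subfamily. The first 12 coding bases are shown for a set of members, with the last codon of the 12 bases in capitals. The alpha members shared all 12 bases. The beta members shown differed from each other in bases, but not in the encoded residues, before a common last codon. Tubg1 had another last codon.
Tuba1a, Tuba1b and Tuba1c: atgcgtgagTGC
Tubb2a: atgcgcgagATC
Tubb2b: atgcgagagATC
Tubb4b: atgagggagATC
Tubb5: atgagggaaATC
Tubg1: atgccgagaGAA

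The libraries held 19530226 to 39499994 counts, of which 2064465 to 3560122 fell on protein-coding genes of the nuclear genome. The 10 tubulins took 1.12% and 0.620% of those protein-coding counts in the inputs, against 0.436% and 0.486% after RIP. Their counts ran from 189 upwards in every library. Input replicate 1 was higher than input replicate 2 for tubulins, and 2 inputs alone cannot tell which of them was unusual. The median log2 ratio of input replicate 1 to input replicate 2 was 0.996 over the members. It was 0.16 over all 13632 tested genes and 0.45 over tested protein-coding genes of the members' transcript length. The same ratio between the RIP libraries had a median of -0.18 over the members. The 12 markers of retinal neurons and progenitors summed to 300 to 362 CPM (counts scaled to the library's effective size) in the inputs and 261 in both RIP libraries. The 5 markers of retinal pigment epithelium were at 0 in every library, and the 5 lens markers summed to at most 0.146 CPM. The 5 endothelial markers, 1 of them at 0 in both inputs, summed to 32.3 to 33.4 CPM in the inputs and 65.6 to 67.2 in the RIP libraries. The 5 microglia markers summed to 1.69 to 2.94 CPM in the inputs and 2.85 to 4.20 in the RIP libraries. The 5 red blood cell markers, 2 of them at 0 in both inputs, summed to 0.758 to 0.990 CPM in the inputs and 0.119 to 0.416 in RIP. The part of these markers in the results was not tested. In bulk RNA, fewer cells of a type and less RNA per cell cannot be told apart between the inputs. Between RIP and input the sums compare eluted RNA with RNA of the lysate, and do not measure cell numbers.

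Levels were compared between isotypes as the authors' FPKM, which are scaled for gene length. In the inputs Tuba1a was highest, at 127 ± 65.6 FPKM (mean ± SD, n = 2 throughout), with the libraries at 173 and 80.6. Tubb5 followed at 69.7 ± 28.3, Tuba1b at 51.6 ± 19.4 and Tubb2b at 34.4 ± 3.96 FPKM. Then came Tuba1c at 18.7 ± 11.1, Tubb4b at 15.7 ± 3.97 and Tubb4a at 11.2 ± 6.01 FPKM. The lowest were Tubb2a at 6.97 ± 1.72, Tubg1 at 6.06 ± 1.60 and Tubb6 at 4.14 ± 1.80 FPKM. Of the 9 pairs of neighbours in that order, 7 overlapped between the input libraries, and the pairs that did not were Tuba1b with Tubb2b and Tubb2b with Tuba1c. Within each input library, however, Tuba1a was above Tubb5, Tubb5 above Tuba1b and Tuba1b above Tubb2b. In the RIP libraries the top of the order was Tubb5 at 37.4 FPKM, Tuba1b at 36.8 and Tuba1a at 35.0. These did not differ beyond their spread, and their order was not the same in both RIP libraries.

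The tubulin transcripts were mostly lower in RIP than in input, and Tuba1a most of all. In edgeR's quasi-likelihood test across all genes, a transcript was called enriched when its log2 fold change (RIP over input) reached 1 and its p before adjustment was under 0.05. A transcript was called depleted at -1 or lower with the same limit on p. Tuba1a, Tuba1c, Tubb5 and Tubg1 were called depleted, 4 of the 10 members, beside 17.2% of all tested genes. No member was called enriched, beside 9.43% of all tested genes. The single positive value was that of Tubb2a, at 0.08 with an unadjusted p of 0.835. With p adjusted by the Benjamini-Hochberg method, Tuba1a was below 0.05, 1 of 10 members, beside 9.78% of all tested genes that were lower by that measure, and no member was higher, beside 3.48% of all tested genes. The median log2 fold change of the members was -0.83, with 9 of 10 below 0, against -0.05 over all tested genes. Among the 2276 tested protein-coding genes whose longest transcript was 1598 to 2649 nucleotides, the range of the members, the median was -0.39, and 486 were depleted and 81 enriched. Scaling by library size alone, or limma on FPKM, left 1 member called depleted, Tuba1a, and taking out trends on length and GC content left 2, Tuba1a and Tubb5. Tuba1a was at -2.04 without RIP replicate 1 and at -2.065 without RIP replicate 2. Without input replicate 2 Tuba1b was at -1.19 and Tubb4a at -1.41, while without input replicate 1 they were at -0.22 and -0.07. In a fit with a library left out, one group is a single library assumed to vary like the other group, so that its p rests on the spread of the 2 remaining libraries of the other group.

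**Figure D1:**
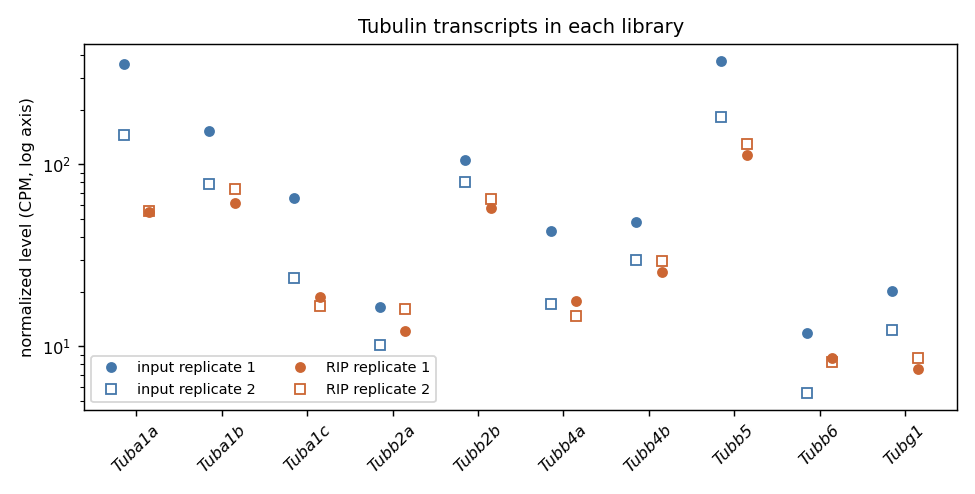
Normalized level (CPM, log axis) of each tubulin transcript in each library, with inputs in blue and RIP in orange, replicate 1 as filled circles and replicate 2 as open squares. Both RIP libraries lie below both inputs for 7 of the 10 transcripts, and the groups overlap for Tubb2a, Tubb4a and Tubb6.

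In 7 members both RIP libraries were below both inputs, beside 31.3% of all tested genes with that pattern. No member had both RIP libraries above both inputs, beside 29.6% of all tested genes. With 2 libraries against 2 an exact permutation test, two-sided, cannot go below p = 0.333, the value these 7 members reached. The first replicate gave the larger fall in every member: its log2 ratio of RIP to input was below that of replicate 2 in all 10.

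Tuba1a, the alpha isotype of growing neurons, had 355 and 146 CPM in the inputs and 55.1 and 55.8 CPM in the RIP libraries. The inputs differed from each other by more than the RIP libraries did, yet both were far above them. The mean fell from 251 ± 148 to 55.4 ± 0.493 CPM, a log2 fold change of -2.18 (SE 0.470, edgeR adjusted p = 0.0203). The log2 ratio was -2.69 within replicate 1 and -1.39 within replicate 2. Without input replicate 1 the value was -1.40, and Tuba1a was called depleted with any one library left out. With 1 RIP library, where the spread came from the inputs alone, the edgeR adjusted p was 0.203 without RIP replicate 1 and 0.170 without RIP replicate 2. The fall of Tuba1a stood at the 8.05th percentile of all tested genes.

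Tuba1b, the widely used alpha isotype, was at 152 and 78.3 CPM in the inputs and at 61.4 and 73.3 CPM in the RIP libraries. The lower input was close to the higher RIP library. Its log2 fold change of -0.78 (SE 0.406, edgeR adjusted p = 0.238) was not called, and it was -0.22 without input replicate 1. Tuba1c was at 65.4 and 23.7 CPM in the inputs and at 18.6 and 16.7 CPM in the RIP libraries. It was called depleted at -1.34 (SE 0.483, edgeR adjusted p = 0.105). That call was lost without input replicate 1, where the value was -0.43. It was also lost without RIP replicate 1 (-1.28) and without RIP replicate 2 (-1.14), although both values lie past -1. Without input replicate 2 it was kept (-1.90).

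Tubb5, the most abundant beta isotype, had 372 and 182 CPM in the inputs and 112 and 130 CPM in the RIP libraries. The groups did not overlap, and Tubb5 was called depleted at -1.19 (SE 0.423, edgeR adjusted p = 0.0996). Without input replicate 1 the value was -0.59 and was not called. The call was also lost without RIP replicate 1 (-0.97) and without RIP replicate 2 (-1.19), and was kept without input replicate 2 (-1.63). Tubb2b had 106 and 79.7 CPM in the inputs against 57.9 and 64.6 CPM in RIP, a log2 fold change of -0.60 (SE 0.343, edgeR adjusted p = 0.276). Its inputs were the closest to each other among the members.

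Tubb4b, an isotype of cilia and many other tissues, was at 48.1 and 29.7 CPM in the inputs and at 25.7 and 29.4 CPM in RIP. Its value of -0.50 (SE 0.367, edgeR adjusted p = 0.404) came almost wholly from replicate 1, at -0.91, since replicate 2 was at -0.01, and was -0.11 without input replicate 1. Tubb4a, known from myelinating glia and neurons, was at 42.9 and 17.1 CPM in the inputs and at 17.8 and 14.8 CPM in RIP, where input replicate 2 fell between the RIP libraries. Its value was -0.88 (SE 0.460, edgeR adjusted p = 0.236), and rested on input replicate 1, without which it was -0.07.

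Tubb2a, a neuronal beta isotype, overlapped between the groups, with 16.4 and 10.2 CPM in the inputs and 12.2 and 16.0 CPM in RIP. Its replicates went opposite ways, at -0.43 and 0.65, around a fitted value of 0.08 (SE 0.373, edgeR adjusted p = 0.908). Tubb6, a beta isotype of low level here, was at 11.8 and 5.54 CPM in the inputs and at 8.60 and 8.23 CPM in RIP. Its replicates were at -0.46 and 0.57 around -0.05 (SE 0.424, edgeR adjusted p = 0.955).

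Tubg1, which nucleates microtubules, was at 20.2 and 12.2 CPM in the inputs and at 7.49 and 8.61 CPM in RIP, with no overlap. It was called depleted at -1.01 (SE 0.374, edgeR adjusted p = 0.112), just past the limit of 1. With the replicate number as a block it was at -0.97 (edgeR adjusted p = 0.162) and not called, and without input replicate 1 it was at -0.61 and not called. The call was also lost with TMM on nuclear protein-coding genes (-0.99) and with no filter on low counts (-0.91).

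**Figure D2:**
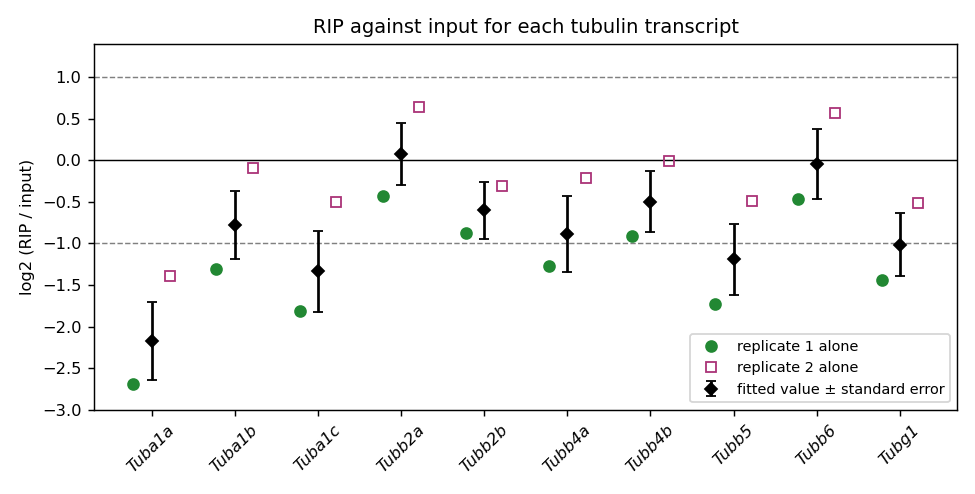
Log2 ratio of RIP to input for each tubulin transcript, with the fitted value and its standard error as black diamonds and bars, replicate 1 alone as green circles and replicate 2 alone as open squares; dashed lines mark the limits of 1 and -1. Replicate 1 is below replicate 2 for every transcript, and for Tuba1a alone both replicates lie below -1.

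The make-up of the tubulin pool also differed between RIP and input. Each isotype's share of the summed FPKM of its subfamily was taken within a library, a measure that scaling between libraries cannot move. Tuba1a made up 65.4% and 62.3% of alpha tubulin in the inputs, against 44.3% and 41.6% in RIP. The share differed by -20.9 percentage points, RIP minus input, and by -21.1 and -20.6 points within replicates 1 and 2. Input replicate 1, in which tubulin levels were the higher, had nearly the same alpha make-up as input replicate 2. Tuba1b took the opposite course, from 24.6% and 29.3% in the inputs to 43.3% and 48.0% in RIP, 18.7 points higher in both replicates. Tuba1c was at 10.02% and 8.43% in the inputs and at 12.4% and 10.4% in RIP. The ratio of Tuba1a to Tuba1b was 2.66 and 2.12 in the inputs and 1.02 and 0.867 in RIP.

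Within the beta isotypes, Tubb5 made up 51.4% and 45.3% in the inputs and 36.8% and 38.1% in RIP, a difference of -10.9 points (-14.6 and -7.16 within the replicates). Tubb2a was at 4.69% and 5.24% in the inputs and at 8.25% and 9.67% in RIP. The share of Tubb4b was 10.6% and 11.8% in the inputs and 13.4% and 13.7% in RIP, and that of Tubb6 3.10% and 2.61% against 5.33% and 4.57%. The groups did not overlap for these isotypes, each with the smallest two-sided exact permutation p the design allows, 0.333. The shares of a pool sum to its whole, so a lower share of one isotype raises those of the others, and they do not count as separate results. The shares of Tubb2b and Tubb4a overlapped between the groups, with differences of 2.46 and -0.03 points. The gap between the closely related Tubb2b and Tubb2a also narrowed, from ratios of 4.54 and 5.49 in the inputs to 3.34 and 2.84 in RIP. Summed alpha tubulin was 1.52 and 1.18 times summed beta tubulin in the inputs and 0.825 and 0.794 times in RIP.

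**Figure D3:**
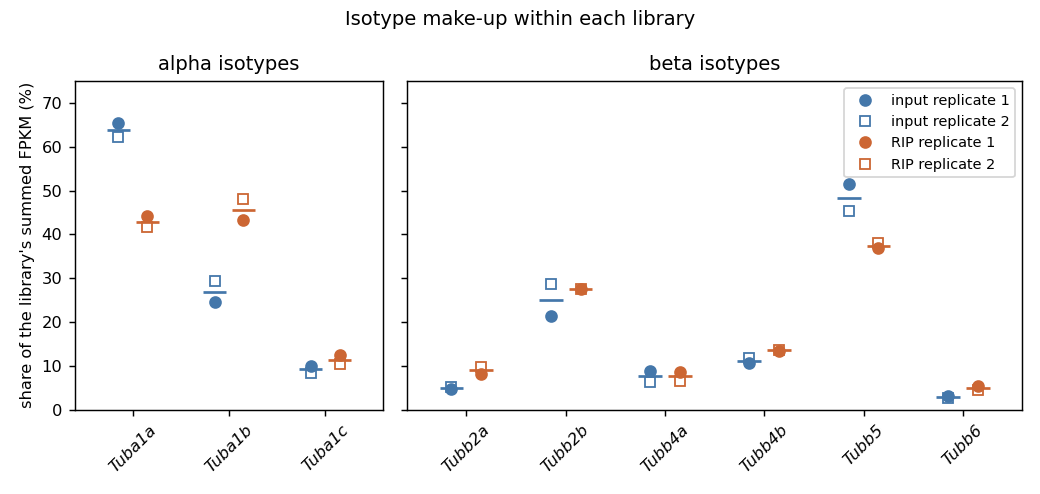
Share (%) of each alpha isotype in the summed alpha FPKM and of each beta isotype in the summed beta FPKM of the same library, with lines at the mean of the 2 libraries of a group. Tuba1a sits at 62.3% to 65.4% in the inputs and 41.6% to 44.3% in RIP, and Tuba1b at 24.6% to 29.3% and 43.3% to 48.0%.

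Near-identical copies limit how far these isotype values can be read, since a short read from a shared stretch may be assigned to another copy or dropped. Of the 100-nucleotide windows of the longest coding Tuba1a transcript, 852 of 1704 also occurred in an annotated gene elsewhere in the genome, as did 69.1% for Tuba1b and 53.4% for Tuba1c. These shares leave out genes that overlap the member's own locus, such as Gm49450, which overlaps Tuba1a and Tuba1b on the same strand. With such genes counted, the shares were 65.8% for Tuba1a and 73.0% for Tuba1b. The partners of Tuba1a with the most shared windows were Tuba1c (34.9%), the pseudogene Gm17383 and the noncoding AC157548.1 that overlaps it (32.1% each), and Tuba1b (26.3%). For Tubb2a the share was 36.9%, nearly all of it with Tubb2b, and for Tubb2b it was 27.7%. Tubb4b shared 29.2%, most of it with the pseudogene Tubb4b-ps1, and Tubg1 shared 4.11%, all with Tubg2. Tubb4a, Tubb5 and Tubb6 shared no window of that length. The read length and the treatment of reads with several matches were not given in the sources used here.

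**Figure D4:**
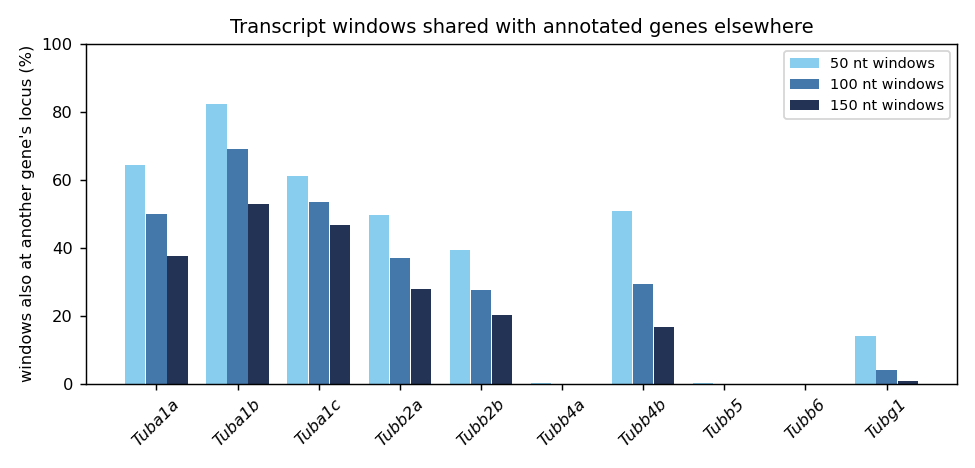
Share (%) of the windows of each tubulin transcript that also occur in an annotated gene at another locus, for windows of 50, 100 and 150 nucleotides (light to dark). At 100 nucleotides Tuba1b shares 69.1% and Tuba1c 53.4%, while Tubb4a, Tubb5 and Tubb6 share none.

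Summing near-identical copies removes the part of this that moves reads within a family. Tuba1a, Tuba1b and Tuba1c summed to 19105 and 8503 counts in the inputs, against 3408 and 3507 in RIP. In the same fit the sum was called depleted, at -1.55 (SE 0.454, edgeR adjusted p = 0.0574), and without input replicate 1 it was at -0.82 and not called. With the counts of 8 pseudogenes added, the alpha sum was again at -1.55 (edgeR adjusted p = 0.0593). Tubb2a and Tubb2b together were at -0.50 (SE 0.347, edgeR adjusted p = 0.377). The sum of Tubb4a, Tubb4b and Tubb5, which are less alike, was called depleted at -1.07 (SE 0.421, edgeR adjusted p = 0.131). These isotypes shared no 100-nucleotide window with each other, so their sum is not a check on moved reads. Tubb5 alone gave 12401 of its 15436 counts in input replicate 1 and 6244 of 7848 in input replicate 2. The sum of Tubb4a, Tubb4b and Tubb5 was at -0.98 with the replicate block (edgeR adjusted p = 0.243) and at -0.47 without input replicate 1. This sum was called in neither fit. Nor was it called without RIP replicate 1 (-0.87) or RIP replicate 2 (-1.04), although the latter value lies past -1.

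Some copies that share sequence with the alpha isotypes had counts of their own. The pseudogene Gm17383, which shares windows with all 3 alpha isotypes, counted 816 and 319 reads in the inputs, against 88 and 100 in RIP. It was called depleted at -2.14 (SE 0.494, edgeR adjusted p = 0.0257), close to the value of Tuba1a. AC154767.3, another processed pseudogene, had more counts, 1077 and 347 in input against 164 and 167 after RIP, and was called depleted at -1.66 (edgeR adjusted p = 0.0725). Gm5620 was called depleted at -1.58 (edgeR adjusted p = 0.0924). Gm6682, at -1.51 with 12 to 96 counts, Gm3756, at -0.88, and Gm14150, at -0.31, were not called. At 100 nucleotides Gm17383 shared 32.1% of the windows of Tuba1a and 29.1% of those of Tuba1b, and AC154767.3 shared 25.3% and 25.7%. Gm5620, Gm6682 and Gm14150 shared more of Tuba1b (16.1%, 19.9% and 31.8%) than of Tuba1a (9.57%, 13.4% and 10.2%). Gm3756 shared 14% of Tuba1a and 11.9% of Tuba1b. Whether these shares go with the fold changes was not tested. These genes were counted apart from the members, and whether their reads came from the tubulin transcripts was not tested.

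Beyond the members, 4 of 10 other tubulin genes passed the filter. Tubb3, the beta isotype used as a neuronal marker, had 1379 and 874 input counts against 777 and 757 in RIP, a log2 fold change of -0.10 (edgeR adjusted p = 0.881). Tubg2, the second gamma tubulin, had 105 and 60 input counts against 21 and 28 in RIP and was called depleted at -1.29 (edgeR adjusted p = 0.135). The other two tested were not called, and Tuba3a, Tuba3b, Tubal3 and Tubb1 had no count in any library.

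The genes that fold tubulin contained larger differences than the tubulins themselves. Of 7 folding cofactors, which assemble the alpha and beta dimer, 1 was called depleted and 1 enriched, beside 17.2% and 9.43% of all tested genes, with a median of -0.57. Tbca, the cofactor that holds beta tubulin, fell from 777 and 624 counts to 40 and 36, at -3.75 (edgeR adjusted p = 0.0013). Tbcd rose from 120 and 104 to 192 and 169 counts, at 1.14 (edgeR adjusted p = 0.0769). Of the 14 subunits of prefoldin and the CCT chaperonin, which receive newly made tubulin, 5 were depleted, beside the same 17.2%, and none was enriched. All 5 were prefoldin genes with adjusted p below 0.05 in edgeR, from Pfdn5 at -3.56, with 2740 and 2329 input counts against 114 and 197 in RIP, to Pfdn1 at -1.20. The other prefoldin gene, Vbp1, was at -0.59 (edgeR adjusted p = 0.655) and not called. The CCT subunits lay between -0.95 (Cct6a) and 0.995 (Cct4) and none was called. These lists were not matched for transcript length, and its part in their values was not tested.

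Of the 8 partners of Tubg1 in the gamma-tubulin ring complex none was called, 6 were above 0 and the median was 0.36. The highest was Tubgcp6 at 0.995 (edgeR adjusted p = 0.110), just short of the limit. Among 17 tested genes for enzymes that modify tubulin, 2 were depleted, a smaller share than the 17.2% of all tested genes, and the median was -0.09. They were Svbp, the partner of the detyrosinating vasohibins, at -1.94 (edgeR adjusted p = 0.0187), and the tubulin deacetylase Sirt2 at -1.36 (edgeR adjusted p = 0.0811). Of the 4 genes of tubulin mRNA autoregulation, Scaper was depleted at -1.58 (edgeR adjusted p = 0.0493) and Cnot1, the scaffold of the deadenylase complex, enriched at 1.13 (edgeR adjusted p = 0.0632). Ttc5 itself was at 0.36 and Cnot11 at -0.21, neither called.

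**Figure D5:**
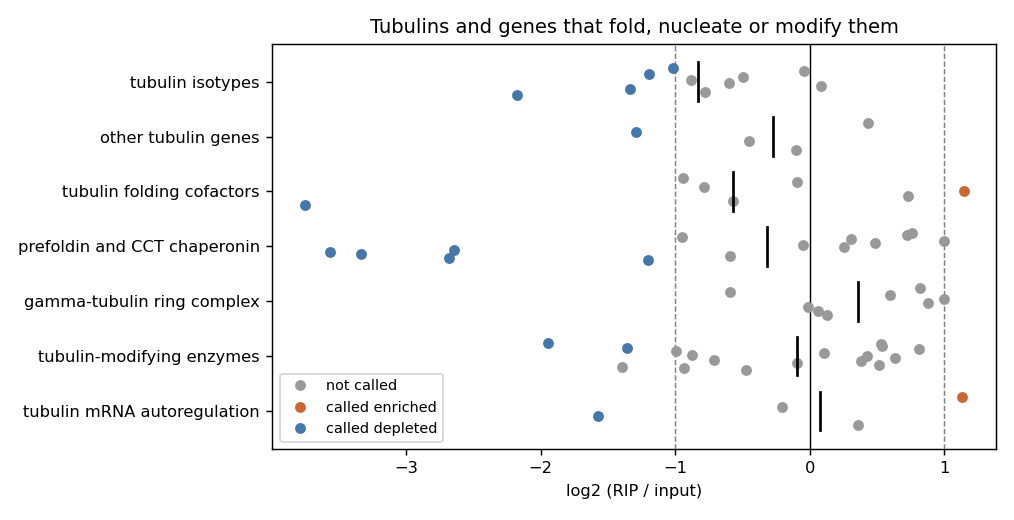
Log2 fold change (RIP over input) of each tested gene in the tubulin isotypes and 6 related lists, with black bars at each list's median, blue points called depleted and orange points called enriched. The tubulin isotypes have the lowest median (-0.83), Pfdn5 (-3.56) and Tbca (-3.75) lie lowest, and the ring complex has no called gene.

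The tubulin transcripts were short, at 1598 to 2649 nucleotides against a median of 3589 over tested protein-coding genes. The motif GGACT, a core form of the m6A consensus, was searched on the sense strand of the longest transcript. It occurred in 9 of the 10 members, with Tuba1b the exception, and in 93.9% of all tested protein-coding genes and 89.7% of those in the members' length range. Tuba1c held 4, Tubb4b 3, Tubb2a, Tubb2b and Tubb5 held 2 each and the rest 1. None lay in the 3′ untranslated region of any member, which ran from 101 nucleotides in Tuba1c to 1061 in Tubb5. Methylation was not measured in these libraries, and a match describes only the letters.

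The members lie at several places in the genome (GRCm38, GENCODE M21). The alpha genes sit together on chromosome 15, Tuba1b at 98931425 to 98934565 and Tuba1a at 98949837 to 98953703 on the minus strand and Tuba1c at 99029891 to 99038110 on the plus strand. Tubb2a (34074274 to 34078007) and Tubb2b (34126748 to 34130466) are neighbours on chromosome 13, minus strand. Tubb5 (35833921 to 35838306) and Tubb4a (57080066 to 57087782) are on chromosome 17, and Tubb4b (25222160 to 25224702) is on chromosome 2, all on the minus strand. Tubb4b overlaps Fam166a on the opposite strand, which had at most 2 counts in any library. Tubg1 is at 101119938 to 101126419 of chromosome 11 and Tubb6 at 67390717 to 67402749 of chromosome 18, both on the plus strand. Each alpha and beta member has 4 exons and Tubg1 has 11, and the counts cover whole genes rather than single exons. Tuba1a and Tuba1b are also overlapped by Gm49450 in that annotation, and no gene with its identifier was found among the counted ones.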

How the data were processed

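The data were RIP-seq of P0 mouse retina, with 2 input and 2 RIP libraries. The authors deposited raw counts per gene and FPKM, which they had scaled for gene length and library size. Per the labels' processing notes, reads were aligned with STAR 2.5 to GRCm38 and counted with HTSeq; read length, annotation and counting options are not given in the sources used here. The depth was 19530226 to 39499994 counts per library.

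Counts were tested in R 4.3.3 with edgeR 4.0.16 (filterByExpr, minimum count 10 and total 15; TMM; glmQLFit and glmQLFTest; Benjamini-Hochberg adjustment over all 13632 tested genes), without the replicate number. The standard error was derived from the fold change and its F statistic. Shares used the deposited FPKM. Transcripts, coding identity, windows and sequences came from GENCODE M21. In lengths and motifs the longest coding transcript stood for a member. For the tested genes set beside the members, the longest transcript of any type was used. All 10 members are named. Genes of the related lists are named where called, with up to 4 by smallest p, apart from the prefoldin genes. Of the called prefoldin genes, Pfdn5 and Pfdn1 are named as the ends of their range of log2 fold changes. Ttc5, Cnot11, Vbp1, Cct4, Cct6a, Tubgcp6 and the pseudogenes were picked with their values in view. The members and lists were chosen with earlier results of these data known.

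The design text gives each replicate an input and a pulldown, so equal numbers mark a shared replicate. Replicate 2 minus replicate 1 in input, set against the same in RIP, had a Spearman correlation of -0.03 across 13632 genes, and a block on the replicate was an alternative. The study calls the replicates biological. The fit was tested on simulated data with known changes.

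The fit was repeated with DESeq2 1.42.0 and with the exact test of edgeR. Scaling was changed to raw library size, to upper quartiles, or to TMM on nuclear protein-coding genes. The filter was dropped, or set to 10 counts in all 4 libraries. A replicate block was added, each library was left out, and FPKM were tested in limma 3.58.1 as log2(FPKM + 1) and log2(FPKM + 0.1). Trends on length and GC content were removed (mgcv 1.9.3) with and without the block. Shares were also taken from counts. Adding pseudogenes to the alpha sum and Tubb3 to the beta pool were chosen after seeing the data.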

Additional observations from a re-analysis of the deposited data

How the results depend on the processing

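Tuba1a was called depleted in the main analysis and under every alternative run, from -2.69 without input replicate 2 to -1.40 without input replicate 1. Its adjusted p was above 0.05 when trends on length and GC content were taken out (-1.66, edgeR adjusted p = 0.083; with the replicate block -1.53, 0.0686) and without either RIP library. With the replicate block alone it was -2.04 (edgeR adjusted p = 0.00438). The block ended the calls of Tubg1 (-0.97) and of the Tubb4a, Tubb4b and Tubb5 sum (-0.98), turned Tubb6 to 0.051, and changed no other call of the members and sums.

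The 4 members called depleted became 1 with library size alone, 1 with either limma fit on FPKM, 2 with length and GC trends, and 1 with those trends and the replicate block. Leaving out single libraries gave 1 to 6, in fits where the lone library of a group was assumed to vary like the other group. Members with adjusted p below 0.05 and lower, 1 in the main fit, numbered 3 with DESeq2, 2 with edgeR's exact test, 0 with the trends and 0 with trends and block, and 0 to 8 with a library left out. No member was called enriched with any library left out (0 to 0). Over all genes, 1286 were enriched, 2357 with library size alone, 386 with log2(FPKM + 1), and 670 to 2097 with a library left out; 2344 were depleted, 1055 with log2(FPKM + 1), 1520 with the trends with or without the block, and 1562 to 2610 with a library left out. Library size alone moved the median of all genes from -0.05 to 0.27, and the Tubb4a, Tubb4b and Tubb5 sum to -0.72, no longer called.

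With a library left out the alpha sum ran from -2.04 to -0.82, the Tubb2a and Tubb2b sum from -0.71 to -0.26, and the Tubb4a, Tubb4b and Tubb5 sum from -1.496 to -0.47. The share differences (percentage points, RIP minus input) ran from -22.4 to -19.3 for Tuba1a, 16.3 to 21.1 for Tuba1b, 1.14 to 3.19 for Tuba1c, 3.29 to 4.70 for Tubb2a, -1.28 to 6.19 for Tubb2b, -1.28 to 1.23 for Tubb4a, 1.81 to 2.96 for Tubb4b, -14.0 to -7.82 for Tubb5 and 1.71 to 2.48 for Tubb6. From counts the Tubb2a share rose by 2.69 and that of Tubb6 by 1.55; with Tubb3 in the pool Tubb2a was at 3.16, Tubb4b at 1.48 and Tubb6 at 1.64.

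Tubb6 changed sign with library size alone (0.32), no filter (0.065), log2(FPKM + 1) (0.25), log2(FPKM + 0.1) (0.31), the trends (0.38) and the trends with the block (0.47), and ran from -0.50 to 0.60 with a library left out. Tubb4b changed sign with the trends (0.10, with the block 0.14), and Tubb2a ran from -0.23 to 0.46 with a library left out. None of these was called. The causes were not tested. In CPM the 2 inputs differed from each other by more than the 2 RIP libraries did, for every member. With 2 libraries a group, that spread limits the fold changes of the members.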
